A study of Mus musculus with 12 samples.

Results

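The genes described here are those whose RNA differed from B6 in the same direction in spleen T cells and in kidney of a congenic mouse strain, B6.NODIdd1,5. A gene was taken when its log2 ratio of congenic to B6 mice had the same sign and an absolute value of 1 or more (a difference of at least 2-fold) on all 4 congenic arrays, 2 of T cells and 2 of kidney. Of 8708 named genes on the array, 7487 had a value on all 4 arrays and were not dropped by name, and 60 met the rule, which is 0.801%. Of these 53 were lower in the congenic mice (0.708% of the eligible genes) and 7 were higher (0.0935%). The values on those 4 arrays chose the genes, so they are given as a description with no test, and nothing is read from these shares.

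The series compared RNA of diabetes-prone NOD mice and related mice with RNA of C57BL/6 (B6) mice on 12 cDNA arrays, each hybridised with both RNAs, and every one of the 6 groups has 2 arrays. B6.NODIdd1,5 is, by its name, a B6 strain that carries the NOD alleles of the Idd1 and Idd5 diabetes intervals, and its spleen T cells and its kidney cells were each set against the same tissue of B6. The other groups were spleen T cells of NOD mice, of NOD.H2h4 mice (NOD carrying the H2h4 haplotype of the major histocompatibility complex, MHC), of bone marrow recipients labelled NODtoB6 and of recipients labelled B6toNOD, all set against B6 spleen T cells. The recipient labels are read as NOD marrow in B6 hosts and B6 marrow in NOD hosts. The sources used here do not say whether the B6 RNA was the same from array to array, so the T cell comparisons may share their control. Age, sex, the sort or gate of the T cells, the treatment of the hosts, the host cells they kept and whether replicates were separate animals are also unstated, so each error and p-value measures only the spread between these arrays. In bulk RNA, fewer cells of a type and less RNA per cell cannot be told apart. The labelled tissues could not be checked against their markers, because a ratio to the same tissue of B6 gives no level and only 2 of 16 listed T cell markers are on the array.

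A congenic strain is made by crossing a chosen chromosome interval into another strain and backcrossing, so its genome is that of the recipient apart from the interval, its flanks and any passenger segments. Idd1 is the MHC on chromosome 17, whose class II molecules present peptides to T cells, and Idd5 lies on chromosome 1 and holds costimulatory receptor genes such as Cd28, Ctla4 and Icos. An allele that alters a gene's own RNA can do so in every tissue that uses the gene, whereas a change that follows from T cell activation is a property of T cells.

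Each array held a value for 18837 to 20558 of 20736 probes, and the values below are log2 ratios to B6 from which the array's median was subtracted. Before centring the array medians lay between -0.88 and -0.0087. Without the centring, 206 genes met the rule, 2 higher and 204 lower, and 55 of the 60 were among them. The replicate arrays correlated across genes with a Spearman correlation of 0.62 in congenic T cells, the lowest of the 6 groups, and 0.84 in congenic kidneys. Leaving out 1 array of congenic T cells let 123 or 115 genes past the rule on the other 3 (17 or 14 higher), and leaving out 1 of kidney let 82 or 90 past it (19 or 21 higher), so the T cell arrays set the length of the list more than the kidney arrays. Spot brightness is not analysed here, so the signal behind a large ratio is unknown, and a probe can also bind RNA of a related gene.

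The genes with the largest values came from unrelated families. Taking for each gene its smallest absolute value over the 4 arrays, the lower genes were led by Crkl, an adaptor protein that links tyrosine kinases to small GTPases, Elovl1, which elongates very long chain fatty acids, and Zfp932, a zinc finger protein. Crkl was at -4.00 and -3.42 in congenic T cells and -2.93 and -3.70 in congenic kidneys. Elovl1 was at -2.72 and -4.40 in congenic T cells and -2.50 and -3.33 in congenic kidneys. Zfp932 was at -2.44 and -2.76 in congenic T cells and -3.68 and -3.53 in congenic kidneys. These were among 8 of the 53 lower genes that were at -2 or less on all 4 arrays. The higher genes were led by Sh3yl1, a protein with an SH3 domain that binds phosphoinositides, and Ccdc97, a coiled-coil protein. Sh3yl1 was at 1.58 and 1.59 in congenic T cells and 3.45 and 3.22 in congenic kidneys. Ccdc97 was at 3.91 and 1.49 in congenic T cells and 5.54 and 2.60 in congenic kidneys, so its replicates lay more than 2 apart in each tissue although all 4 values were high.

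**Figure D1:**
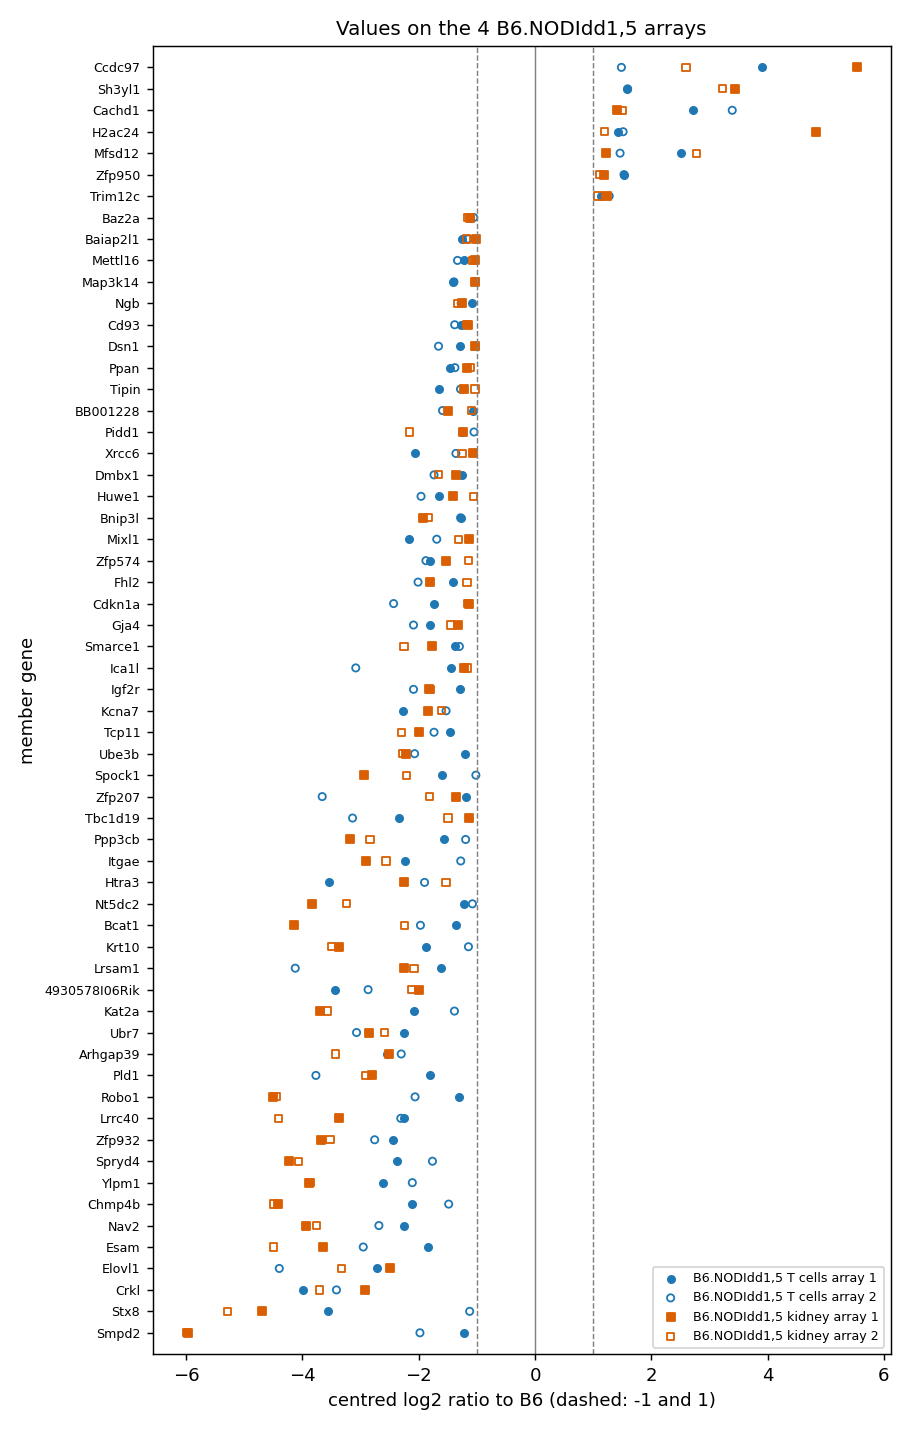
Each point is the centred log2 ratio of B6.NODIdd1,5 to B6 for the 60 genes on the 4 arrays that chose them, 2 of spleen T cells and 2 of kidney. The 53 lower genes have a median of group means of -1.74 in T cells and -2.01 in kidney, and Crkl lies at or below -2.93 on every array.

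The promoters of genes that led each direction, and of Cdkn1a, whose direction differed among the groups, are shown to let their elements be compared. They come from RefSeq (GRCm38.p6), run from 250 bases before to 50 after the annotated start, and were found for 47 of the 60 genes. Capitals mark matches to CCAAT (the CCAAT box of NF-Y), to CCGGAA (the core of ETS factors), to TGACGTCA (the cyclic AMP response element, CRE), to GGGCGG (the GC box of Sp1), to the palindromic NRF1 motif or, in Cdkn1a, to the p53 half-site. These motifs were searched for on both strands, and none of them contains another. Crkl lies at chr16:17451735-17452034, plus strand, Zfp932 at chr5:109996260-109996559, plus strand (the first of 2 promoters listed), Cdkn1a at chr17:29090729-29091028, plus strand (also the first of 2), Sh3yl1 at chr12:30911419-30911718, plus strand and Ccdc97 at chr7:25718986-25719285, minus strand.
Crkl: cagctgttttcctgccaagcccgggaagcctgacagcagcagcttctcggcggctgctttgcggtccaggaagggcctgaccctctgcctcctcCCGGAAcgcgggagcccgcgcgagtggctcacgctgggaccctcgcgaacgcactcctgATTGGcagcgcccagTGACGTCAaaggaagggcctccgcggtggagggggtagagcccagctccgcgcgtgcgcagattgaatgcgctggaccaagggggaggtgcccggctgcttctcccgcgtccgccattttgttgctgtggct
Zfp932: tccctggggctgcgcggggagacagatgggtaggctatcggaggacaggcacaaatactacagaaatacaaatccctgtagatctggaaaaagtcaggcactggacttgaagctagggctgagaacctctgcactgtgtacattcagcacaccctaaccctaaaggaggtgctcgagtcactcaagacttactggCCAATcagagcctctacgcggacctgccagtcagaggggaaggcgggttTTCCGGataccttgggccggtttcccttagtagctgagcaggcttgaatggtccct
Cdkn1a: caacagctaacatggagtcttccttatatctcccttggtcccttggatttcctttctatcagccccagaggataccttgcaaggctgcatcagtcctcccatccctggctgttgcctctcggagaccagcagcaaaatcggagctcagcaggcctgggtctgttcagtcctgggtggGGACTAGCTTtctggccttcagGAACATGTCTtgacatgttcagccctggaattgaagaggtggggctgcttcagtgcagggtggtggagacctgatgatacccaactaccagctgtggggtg
Sh3yl1: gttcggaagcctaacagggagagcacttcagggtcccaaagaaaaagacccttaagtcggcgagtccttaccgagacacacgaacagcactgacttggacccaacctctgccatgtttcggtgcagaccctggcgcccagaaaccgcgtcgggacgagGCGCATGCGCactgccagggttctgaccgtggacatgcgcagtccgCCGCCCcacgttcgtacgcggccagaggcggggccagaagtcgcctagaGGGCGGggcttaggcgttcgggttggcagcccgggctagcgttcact
Ccdc97: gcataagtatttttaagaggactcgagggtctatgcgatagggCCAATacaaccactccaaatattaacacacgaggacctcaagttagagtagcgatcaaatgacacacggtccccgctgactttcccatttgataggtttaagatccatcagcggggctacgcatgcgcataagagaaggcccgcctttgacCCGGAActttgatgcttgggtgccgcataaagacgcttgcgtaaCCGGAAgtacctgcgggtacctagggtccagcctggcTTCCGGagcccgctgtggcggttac
The Crkl window holds the CCAAT box, the ETS core and the CRE, and the Zfp932 and Ccdc97 windows hold the CCAAT box and the ETS core. The Sh3yl1 window holds the NRF1 motif and the GC box, and the Cdkn1a window holds the p53 half-site, as do those of Fhl2, Ppp3cb and Robo1.

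Across the 47 promoters no searched element was present in most genes of the set and rare elsewhere. CCAAT was found in 48.9% of them and in 38.8% of the 6034 promoters of measured genes, GGGCGG in 57.4% and 63.9%, and CCGGAA in 25.5% and 28.6%. TATAAA was found in 8.51% and 7.61%, CACGTG in 8.51% and 10.5%, TGACGTCA in 4.26% and 3.43%, the NRF1 motif in 2.13% and 2.04%, TGANTCA in 4.26% and 5.1%, and the interferon-stimulated response motif (GAAA repeated after any 2 bases) in 6.38% and 3.08%. A consensus NF-kappaB motif was found in 1 of the 47, Cachd1 (2.13%), against 0.133% of measured genes. The p53 half-site, a search added after the sequences were seen, was found in 8.51% and 6.71%. The median GC content was 60.7% in the set and 61% in measured genes. A match is a description of these letters and not a site.

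The remaining higher genes were Cachd1, related to calcium channel subunits, Mfsd12, a lysosomal transporter of cysteine, the histone gene H2ac24, the zinc finger gene Zfp950 and Trim12c, of the TRIM family of ubiquitin ligases. Cachd1 was at 2.72 and 3.39 in congenic T cells and 1.40 and 1.5 in congenic kidneys, with every T cell value above every kidney value. Mfsd12 was at 2.51 and 1.46 in congenic T cells and 1.22 and 2.77 in congenic kidneys, with the tissues overlapping. H2ac24 was at 1.42 and 1.51 in congenic T cells and 4.83 and 1.19 in congenic kidneys, with 1 kidney value far above the other. Histone, zinc finger and Trim12 genes have close copies whose RNA a cDNA probe can also bind, so these names are less certain than the others. Zfp950 was at 1.54 and 1.53 in congenic T cells and 1.19 and 1.11 in congenic kidneys, and Trim12c at 1.13 and 1.28 in congenic T cells and 1.24 and 1.08 in congenic kidneys. Trim12c was close to the threshold on all 4 arrays and Zfp950 on the kidney arrays, and the replicates of both genes lay close together.

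Of the 53 lower genes, 29 had the larger mean change in kidney and 24 in T cells. For 22 both kidney values lay below both T cell values, and for 15 the reverse held. The T cell means ran down to -3.71 and up to -1.09, and the kidney means down to -5.99 and up to -1.02. Replicates lay closer in kidney, with a median gap between arrays of 0.187, than in T cells, with 0.577. A gap of more than 1 was found for 2 lower genes in kidney and 8 in T cells. Near the threshold the choice was narrow, since 26 of the 53 had a smallest absolute value under 1.2. Just inside were Baiap2l1, an organiser of actin, at -1.26 and -1.15 in congenic T cells and -1.01 and -1.18 in congenic kidneys, Spock1, a matrix proteoglycan, at -1.60 and -1.02 in congenic T cells and -2.94 and -2.21 in congenic kidneys, and Map3k14, the NF-kappaB-inducing kinase, at -1.41 and -1.39 in congenic T cells and -1.03 and -1.02 in congenic kidneys. Just outside were Itpk1, an inositol phosphate kinase, with a smallest absolute value of 0.9995, Snx32, a sorting nexin, with 0.994, and Ppat, an enzyme of purine synthesis, with 0.990. Itpk1 was at -0.9995 and -1.06 in congenic T cells and -1.48 and -2.07 in congenic kidneys, Snx32 at -2.54 and -1.69 in congenic T cells and -1.16 and -0.99 in congenic kidneys and Ppat at -1.82 and -2.76 in congenic T cells and -0.99 and -4.998 in congenic kidneys, so each was held out by 1 array. Outside the congenic mice, Itpk1 was at -0.03 and 0.00 in NOD, -0.13 and -0.28 in NOD.H2h4, -1.60 and -1.46 in NODtoB6 and -1.63 and -0.35 in B6toNOD. Snx32 was at -0.18 and -0.34 in NOD, -0.82 and -0.43 in NOD.H2h4, -0.24 and -0.48 in NODtoB6 and -1.004 and -2.40 in B6toNOD. Ppat was at 0.01 and -1.14 in NOD, -1.67 and -0.55 in NOD.H2h4, -0.03 and 0.26 in NODtoB6 and -0.49 and -0.53 in B6toNOD. Itpk1 was low in both marrow recipients and near B6 in the strains, Snx32 was below B6 on all 8 arrays, and Ppat had values of either sign. Dropped by name were Cd28, Tuba4a, Mrpl15, Psme3ip1 and Slc4a1, all lower, and with no gene dropped 65 of 7931 genes (0.82%) met the rule.

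The members are grouped below by roles assigned by hand once the genes were known. The share of each role among all eligible genes was not counted, so the group sizes are a description and not a result. Signalling genes made up 6 of the lower members: Crkl, Map3k14, Ppp3cb (the calcineurin catalytic subunit beta), Arhgap39 and Baiap2l1 (a GTPase-activating protein and an actin regulator) and Pld1 (phospholipase D1). Arhgap39 was at -2.54 and -2.30 in congenic T cells and -2.51 and -3.44 in congenic kidneys. Pld1 was at -1.81 and -3.77 in congenic T cells and -2.80 and -2.91 in congenic kidneys. Pld1 overlapped between the tissues, and Arhgap39 was at -2 or less on every array. Ppp3cb, which acts downstream of T cell receptor calcium signals, was at -1.57 and -1.19 in congenic T cells and -3.19 and -2.84 in congenic kidneys, lower in kidney than in T cells on every array.

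Genes of the cell cycle and DNA damage response made up 6 more. They were Cdkn1a (p21, which inhibits cyclin-dependent kinases), Xrcc6 (Ku70, of DNA end joining), Pidd1 (a death domain protein induced by p53), Tipin (of the replication fork), Dsn1 (of the kinetochore) and Zfp207 (a spindle protein). Cdkn1a was at -1.73 and -2.43 in congenic T cells and -1.14 and -1.15 in congenic kidneys, with both T cell values below both kidney values. Xrcc6 was at -2.06 and -1.36 in congenic T cells and -1.07 and -1.26 in congenic kidneys. Zfp207 was at -1.18 and -3.66 in congenic T cells and -1.36 and -1.82 in congenic kidneys, and its T cell replicates lay more than 2 apart. Pidd1, Tipin and Dsn1 had means between -1.70 and -1.03 in kidney. The T cell values of Pidd1 rest on 1 probe, which read only -0.62 and -0.52 in congenic kidneys. Its other probe read -1.87 and -3.78 in congenic kidneys and had no value in congenic T cells.

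Genes given a role in chromatin and transcription numbered 8 lower and 2 higher. Kat2a, a histone acetyltransferase, was at -2.09 and -1.39 in congenic T cells and -3.70 and -3.57 in congenic kidneys, and Smarce1, a subunit of the SWI/SNF remodelling complex, at -1.38 and -1.30 in congenic T cells and -1.76 and -2.25 in congenic kidneys. These were the 2 that met the rule among 45 measured genes of a list of chromatin and transcription machinery, whose median was -0.04 in T cells and -0.19 in kidney. Over all genes 0.82% met the rule with none dropped, and nothing is read from so small a count. Baz2a, a silencer of ribosomal DNA, Fhl2, a LIM domain coactivator, Zfp574, and the homeobox genes Dmbx1 and Mixl1 were also lower. Fhl2 was at -1.40 and -2.01 in congenic T cells and -1.81 and -1.17 in congenic kidneys, and Dmbx1 at -1.26 and -1.74 in congenic T cells and -1.36 and -1.66 in congenic kidneys.

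Ubiquitin ligases gave 4 lower genes (Huwe1, Ube3b, Ubr7 and Lrsam1). Ubr7 was at -2.26 and -3.07 in congenic T cells and -2.86 and -2.59 in congenic kidneys, below -2 on every array. A separate list of the ubiquitin system holds none of these 4, and 0 of its 42 measured genes met the rule, as did 0.82% of all genes with none dropped. Membrane traffic genes that were lower were Stx8 (a SNARE of endosomes), Chmp4b (of the ESCRT machinery), Igf2r (the mannose 6-phosphate receptor) and Tbc1d19. Stx8 was at -3.56 and -1.12 in congenic T cells and -4.70 and -5.29 in congenic kidneys, and Chmp4b at -2.11 and -1.49 in congenic T cells and -4.43 and -4.50 in congenic kidneys. Both had kidney values below all of their T cell values.

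Cell surface and matrix genes were lower in 8 cases: Esam and Cd93 (proteins of endothelial cells), Itgae (the CD103 integrin chain of intraepithelial T cells), Gja4 (a connexin), Robo1 (a guidance receptor), Spock1, Htra3 (a secreted protease) and Kcna7 (a potassium channel). Esam was at -1.84 and -2.95 in congenic T cells and -3.65 and -4.50 in congenic kidneys. Robo1 was at -1.31 and -2.06 in congenic T cells and -4.51 and -4.46 in congenic kidneys. Itgae was at -2.23 and -1.28 in congenic T cells and -2.90 and -2.56 in congenic kidneys, with both kidney values below both T cell values. The lipid and mitochondrial genes were Elovl1, Smpd2 (neutral sphingomyelinase), Bcat1 (branched-chain aminotransferase) and Bnip3l (a mitophagy receptor). Smpd2 had the lowest kidney mean of the set, at -1.23 and -1.98 in congenic T cells and -5.97 and -6.00 in congenic kidneys. Bnip3l was at -1.27 and -1.28 in congenic T cells and -1.93 and -1.83 in congenic kidneys. It was the 1 gene that met the rule among 20 measured apoptosis regulators, and 0.82% of all genes met it with none dropped.

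Mettl16, an RNA methyltransferase, and Ppan, a ribosome assembly factor, had 4 values each between -1.47 and -1.04. The other lower genes were Nav2, Ylpm1, Lrrc40, Spryd4, Krt10, Nt5dc2, Tcp11, Ica1l, Ngb and the uncharacterised 4930578I06Rik and BB001228. Nav2, a neuron navigator that binds microtubules, was at -2.25 and -2.69 in congenic T cells and -3.94 and -3.76 in congenic kidneys. Lrrc40 was at -2.26 and -2.31 in congenic T cells and -3.37 and -4.41 in congenic kidneys. Ylpm1 was at -2.62 and -2.11 in congenic T cells and -3.89 and -3.87 in congenic kidneys. These were below -2 on all 4 arrays. Spryd4 was at -2.38 and -1.76 in congenic T cells and -4.24 and -4.06 in congenic kidneys and 4930578I06Rik at -3.45 and -2.87 in congenic T cells and -1.99 and -2.13 in congenic kidneys.

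**Figure D2:**
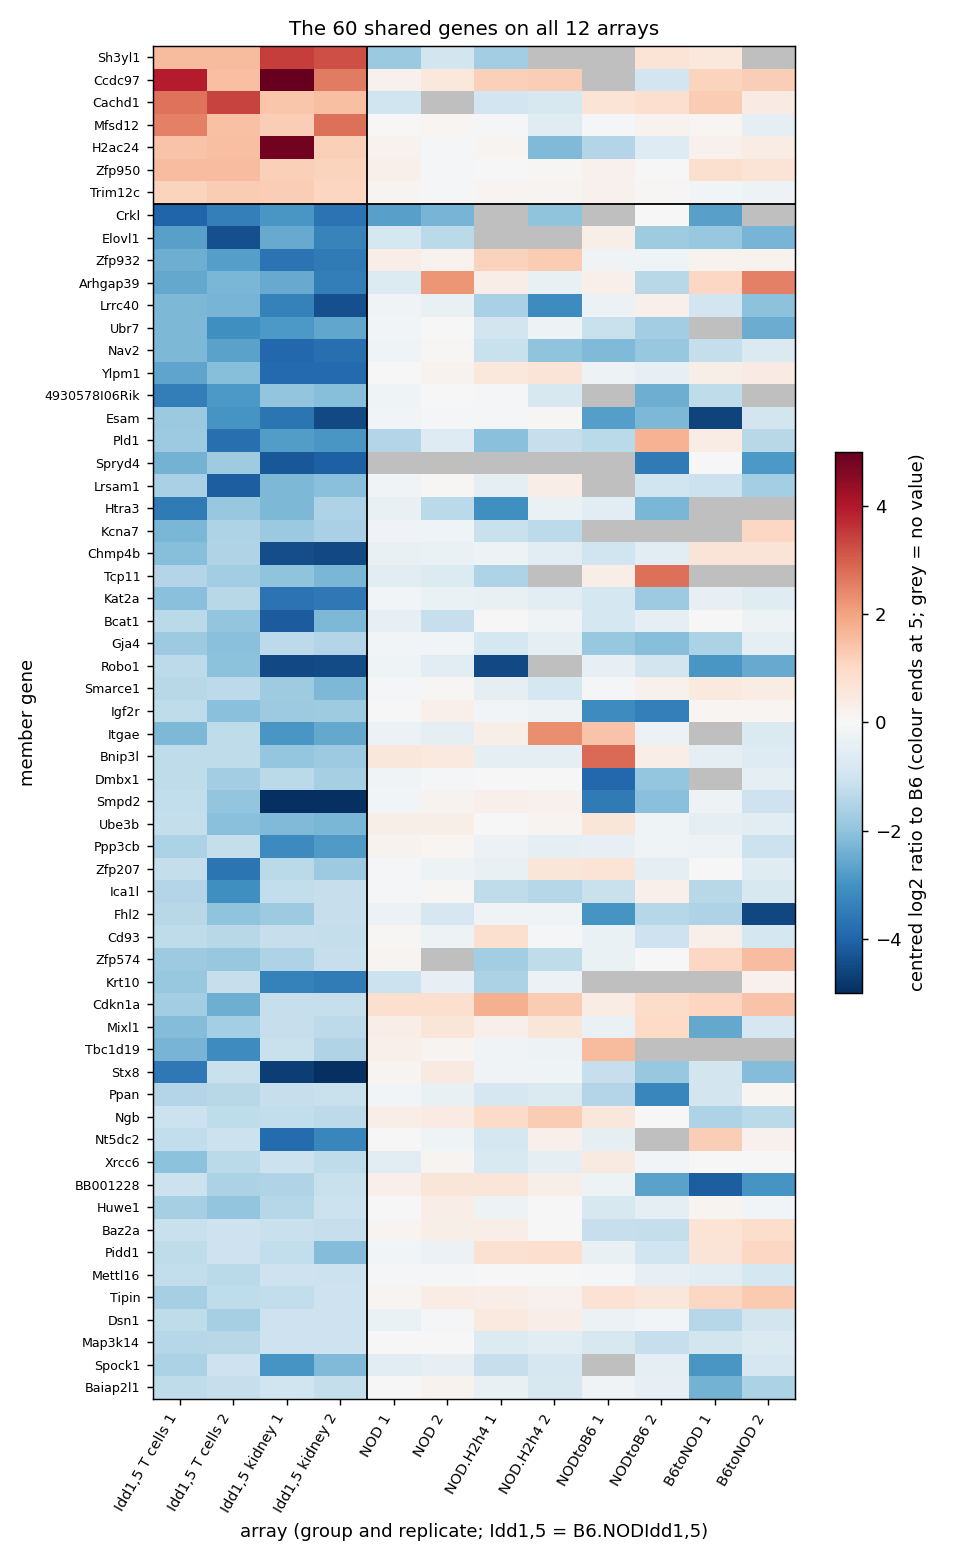
Centred log2 ratio to B6 of the 60 genes on all 12 arrays, grouped by strain or marrow transfer, with missing values in grey. The congenic T cell and kidney columns are uniform by choice, whereas the other 8 columns hold values of either sign, such as Cdkn1a, which is above 0 on all 8.

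No member of the set was in the lists of MHC region genes (0 of 36 measured), interferon-response genes (0 of 11), immediate-early and NF-kappaB feedback genes (0 of 18), proliferation genes (0 of 32) or mitochondrial energy genes (0 of 43). Over all genes 0.82% met the rule with none dropped, so a count of 0 in lists this short, here and below, is not read as a result. Of 42 measured Idd5 region genes, Cd28 and Tuba4a met the rule and were dropped by name. The lists' medians in the congenic mice lay between -0.63 and 0.31. Among markers of other cell types, Slc4a1, an erythroid gene dropped by name, met the rule, and none of 4 B cell, 5 myeloid, 1 natural killer, 1 T cell or 7 kidney tubule markers did. The median of the 7 erythroid markers was -0.60 in congenic T cells and 0.02 in congenic kidneys, and of the 5 myeloid markers -0.44 and -0.05. Their part in the result was not tested.

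By chromosome, 3 members lie on chromosome 1 (Ica1l, Fhl2 and Mixl1) of 429 eligible genes (0.699%) and 3 on chromosome 17 (Tcp11, Igf2r and Cdkn1a) of 335 (0.896%), near the 0.801% of all eligible genes. The chromosome 1 count leaves out Cd28 and Tuba4a, Idd5 region genes that met the rule and were dropped by name. Its nearness to 0.801% is therefore not read as a result. Chromosome 11 held 8 of 630 (1.27%) and chromosome 7 held 6 of 550 (1.09%). Ica1l was the member nearest the Idd5 costimulatory genes, with 6 protein-coding genes between it and Cd28 and 7 between it and Ctla4 in RefSeq order (GRCm38.p6). It was at -1.45 and -3.08 in congenic T cells and -1.21 and -1.17 in congenic kidneys. Cdkn1a has 97 protein-coding genes between it and the MHC gene H2-K1, and 24 between it and Tcp11. The sources used here do not state how far the NOD segments of this strain extend.

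The genes were then followed in the 8 arrays that did not choose them. A gene was tested in a group where both arrays held a value, with limma fitted across all features and p-values adjusted over them. The fit took its spread from all 12 arrays, so the gaps between congenic replicates also enter these p-values. With the 8 arrays fitted alone, 1 member passed in NOD, 14 in NOD.H2h4 and 14 in NODtoB6. In B6toNOD 11 were then higher and 19 lower. The counts that follow are from the fit of all 12. Of all features 12.2% passed an adjusted p of 0.05 in NOD, 39.5% in NOD.H2h4, 26.8% in NODtoB6 and 51.4% in B6toNOD. In NOD 3 of 57 members passed (5.26%), 1 higher and 2 lower. In NOD.H2h4 14 of 54 passed (25.9%), in NODtoB6 16 of 49 (32.7%) and in B6toNOD 27 of 49 (55.1%). Counting either direction, the members' share was below that of all features in NOD and NOD.H2h4, and above it by less than 6 percentage points in the marrow recipients. Among lower members alone, 1 of 51 was also lower in NOD (1.96%, against 2.46% of all features) and 8 of 48 in NOD.H2h4 (16.7%, against 15.4%). In NODtoB6 14 of 44 were lower (31.8%, against 13.1%) and in B6toNOD 17 of 43 (39.5%, against 22.9%). Over all features 9.79% were higher in NOD, 24.1% in NOD.H2h4, 13.8% in NODtoB6 and 28.5% in B6toNOD. The medians of the lower members were -0.09, -0.21, -0.59 and -0.54, against -0.01, -0.01, -0.01 and -0.04 over all features. In NODtoB6 14 lower members were lower and 2 higher, and in B6toNOD 17 were lower and 8 higher. The sign of the marrow transfer values rests on taking the experimental channel as the top of the ratio, and with those arrays turned 14 of the 49 members tested would be higher in NODtoB6 and 17 in B6toNOD. Of the higher members, 0 of 6 in NOD, 0 of 6 in NOD.H2h4, 0 of 5 in NODtoB6 and 2 of 6 in B6toNOD were higher, the last being Cachd1 and Zfp950.

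The NOD count was unstable, at 0 without either NOD array, 1 without either kidney array and 5 without either NODtoB6 array, while the features past the threshold there numbered 814 and 189 without NOD replicate 1 and 2 and 1231 without a kidney array. Without NOD.H2h4 replicate 1 or 2, 3828 or 3849 features passed in that group, and without NODtoB6 replicate 2, 2314 passed in NODtoB6. On the values as deposited, 2 members were higher and 34 lower in NOD.H2h4 and 2 and 32 in B6toNOD, against 5 higher and 9 lower in NOD.H2h4 and 10 and 17 in B6toNOD after centring. Over all features that passed, the higher ones made up 79.9% in NOD, 61% in NOD.H2h4, 51.3% in NODtoB6 and 55.4% in B6toNOD after centring, and 55%, 3.75%, 16.7% and 9.5% as deposited. With arrays scaled to the same spread, 9 members passed in NOD, 5 higher and 4 lower, and 16 in B6toNOD, 5 higher and 11 lower, and the higher share of all features in NOD was 63.7%. Myeloid markers were higher in 4 of 5 cases in NOD, 3 of 5 in NOD.H2h4, 5 of 5 in NODtoB6 and 5 of 5 in B6toNOD, and the other 2 were lower in NOD.H2h4. Erythroid markers were higher in 3 of 7 cases in NOD, 3 of 6 in NOD.H2h4, 5 of 7 in NODtoB6 and 3 of 6 in B6toNOD, and 1 was lower in each of NOD, NOD.H2h4 and B6toNOD. Group medians were 0.59, 0.41, 2.57 and 3.57 for the myeloid and 1.16, 0.35, 0.89 and 0.14 for the erythroid markers. Their part in the members' values was not tested.

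**Figure D3:**
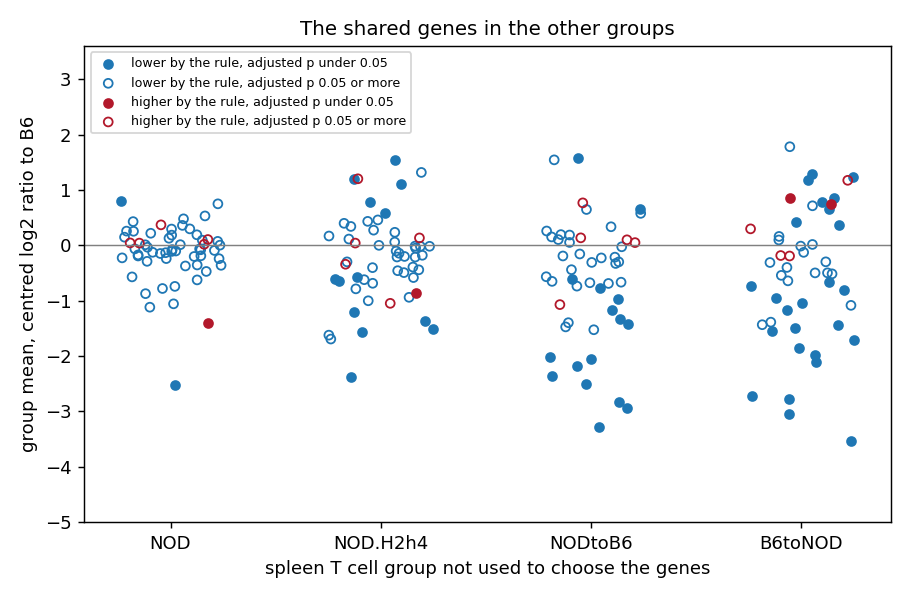
Group means of the members with a value on both arrays of a group, as centred log2 ratios to B6, in the 4 groups that the rule did not use. These are 57 genes in NOD, 54 in NOD.H2h4, 49 in NODtoB6 and 49 in B6toNOD. Filled points are genes past an adjusted p of 0.05. The lower members spread around a median of -0.09 in NOD and -0.54 in B6toNOD.

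Crkl was the lower member that was also lower in NOD. It was at -2.72 and -2.31 in NOD, -2.01 (1 array) in NOD.H2h4, -0.03 (1 array) in NODtoB6 and -2.71 (1 array) in B6toNOD. The mean in NOD was -2.52 ± 0.26 (SE, n = 2 arrays, limma adjusted p = 0.010), and without NOD replicate 1 or 2 the adjusted p was 0.087 or 0.12. Its NOD values were less far below B6 than the congenic ones, and each other group had a value on 1 array and was not tested. Sh3yl1 went the other way in NOD, at -1.87 and -0.93, with a mean of -1.40 ± 0.24 (adjusted p = 0.034). It was at -1.75 (1 array) in NOD.H2h4, 0.68 (1 array) in NODtoB6 and 0.52 (1 array) in B6toNOD. The Sh3yl1 call was lost on the values as deposited (adjusted p = 0.053), with the running median (0.081), with the 8 arrays outside the rule fitted alone (0.18), with the replicate block (0.067) and without either array of NOD (0.074 and 0.054), congenic T cells (0.073) or kidney (0.086).

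Cdkn1a was higher than B6 on all 8 of these arrays. It was at 0.80 and 0.80 in NOD, 1.79 and 1.28 in NOD.H2h4, 0.38 and 0.91 in NODtoB6 and 1.06 and 1.41 in B6toNOD. Its mean was 1.54 ± 0.21 in NOD.H2h4 (adjusted p = 0.00092), 1.24 ± 0.21 in B6toNOD (0.0019), 0.80 ± 0.21 in NOD (0.047) and 0.65 ± 0.21 in NODtoB6, which did not pass (0.055). The NOD call was lost on the values as deposited (0.19), with the 8 arrays outside the rule fitted alone (0.079), with the replicate block (0.074) and without NOD replicate 1 or 2 (0.24 or 0.31), either kidney array (0.086) or either NOD.H2h4 array (0.059). The B6toNOD mean was 0.48 (0.075) as deposited. Zfp932, at -2 or less on all congenic arrays, was at 0.33 and 0.18 in NOD, 1.13 and 1.26 in NOD.H2h4, -0.17 and -0.22 in NODtoB6 and 0.16 and 0.16 in B6toNOD, and passed as higher in NOD.H2h4 with 1.2 ± 0.094 (adjusted p = 0.00010). Zfp574 was lower in NOD.H2h4, at -1.50 ± 0.19, and higher in B6toNOD, at 1.29 ± 0.19 (adjusted p = 0.0012 and 0.0016). Its arrays read -1.75 and -1.26 in NOD.H2h4 and 1.03 and 1.56 in B6toNOD.

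In NOD.H2h4, Lrrc40 was at -1.63 and -3.14, a mean of -2.38 ± 0.41 (adjusted p = 0.0031), and Nav2 at -1.11 and -2.02, a mean of -1.57 ± 0.23 (0.0014). In NOD, Lrrc40 was at -0.19 and -0.39 and Nav2 at -0.20 and 0.07. The difference NOD.H2h4 minus NOD was -2.09 for Lrrc40 and -1.50 for Nav2, and both passed (adjusted p = 0.047 and 0.020). Ica1l, the member nearest the Idd5 costimulatory genes, was at -1.29 and -1.44 in NOD.H2h4 against -0.11 and 0.04 in NOD. Its NOD.H2h4 mean of -1.36 ± 0.41 passed (adjusted p = 0.034), and without NOD.H2h4 replicate 1 or 2 the adjusted p was 0.16 or 0.20. It was 0.055 without either kidney array, 0.057 without either NOD array, 0.0996 with arrays scaled and 0.052 with the replicate block. Its difference from NOD did not pass (-1.33, adjusted p = 0.17). In NODtoB6 and B6toNOD Ica1l was at -1.12 and 0.24 and -1.38 and -0.79 and did not pass.

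Among members past the threshold, the group mean farthest from B6 was that of Igf2r in NODtoB6 and that of BB001228 in B6toNOD, both lower in the direction assumed for these arrays and higher if they are turned. Igf2r was at -3.15 and -3.41 in NODtoB6 and 0.10 and 0.10 in B6toNOD, and its NODtoB6 mean was -3.28 ± 0.18 (adjusted p = 3.6e-05). Its 2 NODtoB6 values lay below every other value of the gene. BB001228 was at -4.11 and -2.94 in B6toNOD, a mean of -3.52 ± 0.52 (0.0010), and -0.27 and -2.68 in NODtoB6. Dmbx1 was at -3.93 and -1.94 in NODtoB6 (-2.94 ± 0.42, 0.0046), Smpd2 at -3.55 and -2.10 (-2.83 ± 0.34, 0.0017) and Ppan at -1.47 and -3.27 (-2.37 ± 0.39, 0.0054). Robo1 was at -2.91 and -2.53 in B6toNOD (-2.72 ± 0.22, 0.00011).

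Some of these means rest on arrays that read far apart. Fhl2 was at -2.96 and -1.41 in NODtoB6 and -1.53 and -4.56 in B6toNOD (mean -3.05 ± 0.66, adjusted p = 0.0067), and its B6toNOD value without replicate 2 was -1.53 with an adjusted p of 0.054. Its B6toNOD arrays differ in probes, since the first averages probes at -0.38 and -2.68 and the second holds the lower-reading probe alone, at -4.56. Esam was at -2.74 and -2.26 in NODtoB6 (-2.50 ± 0.74, 0.043) and -4.62 and -0.92 in B6toNOD (-2.77 ± 0.74, 0.016). Without B6toNOD replicate 1 it was at -0.92 (0.12), and its NODtoB6 adjusted p was 0.22 or 0.16 without NODtoB6 replicate 1 or 2, 0.052 without either congenic T cell array, 0.066 without either kidney array, 0.070 without either NOD array and 0.068 without either NOD.H2h4 array. It was also 0.060 with the running median, 0.082 with the 8 arrays outside the rule fitted alone and 0.059 with the replicate block. Elovl1 was at 0.30 and -1.78 in NODtoB6 and -1.90 and -2.32 in B6toNOD (-2.11 ± 0.57, 0.022), and without B6toNOD replicate 1 or 2 the adjusted p was 0.080 or 0.13, and it was 0.15 with arrays scaled.

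Other leading lower genes passed in some groups. Lrrc40 was at -0.30 and 0.24 in NODtoB6 and -0.94 and -2.04 in B6toNOD, and passed as lower in B6toNOD (-1.49 ± 0.41, adjusted p = 0.019, 0.20 without B6toNOD replicate 2 and 0.083 with arrays scaled). Nav2 was at -2.21 and -1.90 in NODtoB6 and -1.19 and -0.71 in B6toNOD. It passed as lower in both, with an adjusted p of 0.0012 in NODtoB6 and 0.011 in B6toNOD, the second lost without B6toNOD replicate 1 (0.11) and with arrays scaled (0.092). Ubr7 was at -0.14 and -0.02 in NOD, -0.91 and -0.26 in NOD.H2h4, -1.11 and -1.73 in NODtoB6 and -2.47 (1 array) in B6toNOD. It passed as lower in NODtoB6 (-1.42 ± 0.25, adjusted p = 0.010, 0.097 without NODtoB6 replicate 2). Elovl1 was at -0.87 and -1.36 in NOD and had no value in NOD.H2h4. Esam was at -0.15 and -0.11 in NOD and -0.05 and 0.05 in NOD.H2h4, close to B6 in both strains.

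Ylpm1, whose congenic values were at or below -2.11, was at -0.01 and 0.19 in NOD, 0.53 and 0.64 in NOD.H2h4, -0.24 and -0.42 in NODtoB6 and 0.31 and 0.41 in B6toNOD. It passed as higher in NOD.H2h4 (0.59 ± 0.12, adjusted p = 0.0080) and B6toNOD (0.36 ± 0.12, 0.043), but on the values as deposited its mean was -0.22 in NOD.H2h4 and -0.40 in B6toNOD, so its direction depends on the centring. Without NOD.H2h4 replicate 1 or 2 the first adjusted p was 0.055 or 0.091, and leaving out any 1 array other than those of congenic T cells gave 0.052 to 0.21 for the second. Arhgap39 was at -0.70 and 2.20 in NOD, 0.32 and -0.35 in NOD.H2h4, 0.26 and -1.39 in NODtoB6 and 1.04 and 2.52 in B6toNOD. Pld1 was at -1.45 and -0.66 in NOD, -2.08 and -1.16 in NOD.H2h4, -1.36 and 1.75 in NODtoB6 and 0.37 and -1.37 in B6toNOD. Both held values of either sign and passed in no group tested. In NOD and NODtoB6 the arrays of Arhgap39 rest on different probes, and the probe measured on both B6toNOD arrays and both NOD.H2h4 arrays read 3.23 and 3.05 in B6toNOD and 0.32 and 0.33 in NOD.H2h4. The other Arhgap39 probe read -1.14 and 1.99 in B6toNOD, so the probes disagreed on the first of these arrays. 4930578I06Rik was at -0.23 and 0.01 in NOD, -0.08 and -0.81 in NOD.H2h4, -2.42 (1 array) in NODtoB6 and -1.26 (1 array) in B6toNOD. Spryd4 was at -3.54 (1 array) in NODtoB6 and 0.01 and -2.88 in B6toNOD and had no value in NOD or NOD.H2h4. Neither of these passed where it was tested.

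Of the higher genes, Ccdc97 was at 0.22 and 0.51 in NOD, 1.19 and 1.21 in NOD.H2h4, -0.98 (1 array) in NODtoB6 and 1.10 and 1.25 in B6toNOD. Cachd1 was at -1.01 (1 array) in NOD, -0.95 and -0.79 in NOD.H2h4, 0.68 and 0.85 in NODtoB6 and 1.28 and 0.43 in B6toNOD. Cachd1 was below B6 on every measured array of the unmanipulated strains and above it in the marrow recipients, and Ccdc97 was above B6 in all groups but NODtoB6. Cachd1 passed as lower in NOD.H2h4 (-0.87 ± 0.23, adjusted p = 0.025, 0.18 or 0.12 without NOD.H2h4 replicate 1 or 2) and as higher in B6toNOD (0.85 ± 0.23, 0.021). The B6toNOD call was lost without B6toNOD replicate 1 (0.20), on the values as deposited (0.09, adjusted p = 0.79) and with arrays scaled (0.53, adjusted p = 0.10). Mfsd12 was at -0.02 and 0.11 in NOD, -0.07 and -0.62 in NOD.H2h4, -0.09 and 0.19 in NODtoB6 and 0.10 and -0.47 in B6toNOD. H2ac24 was at 0.18 and -0.10 in NOD, 0.12 and -2.21 in NOD.H2h4, -1.48 and -0.66 in NODtoB6 and 0.21 and 0.38 in B6toNOD. Both genes had values on either side of B6 and passed in no group. Zfp950 was at 0.27 and -0.06 in NOD, 0.03 and 0.05 in NOD.H2h4, 0.23 and -0.03 in NODtoB6 and 0.81 and 0.70 in B6toNOD. Trim12c was at 0.14 and -0.10 in NOD, 0.12 and 0.15 in NOD.H2h4, 0.20 and 0.07 in NODtoB6 and -0.12 and -0.26 in B6toNOD. The B6toNOD values of Zfp950 lay above its values in the other 3 groups, and its mean there passed (0.75 ± 0.10, adjusted p = 0.00055), but on the values as deposited that mean was -0.0085 (0.97).

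Igf2r, Dmbx1 and Smpd2 were within 0.27 of B6 in the unmanipulated strains. Igf2r was at -0.01 and 0.27 in NOD and -0.15 and -0.27 in NOD.H2h4. Dmbx1 was at -0.19 and -0.06 in NOD, -0.01 and -0.02 in NOD.H2h4 and -0.43 (1 array) in B6toNOD. Smpd2 was at -0.14 and 0.16 in NOD, 0.25 and 0.22 in NOD.H2h4 and -0.24 and -1.04 in B6toNOD. In each, both NODtoB6 values lay below every value measured in NOD, NOD.H2h4 and B6toNOD. Ppan was at -1.47 and -1.38 in congenic T cells and -1.17 and -1.11 in congenic kidneys, and at -0.12 and -0.36 in NOD, -0.84 and -0.73 in NOD.H2h4 and -0.91 and 0.11 in B6toNOD. The congenic values of Igf2r were -1.28 and -2.09 in congenic T cells and -1.83 and -1.79 in congenic kidneys. BB001228 was at -1.07 and -1.59 in congenic T cells and -1.50 and -1.10 in congenic kidneys, and at 0.25 and 0.60 in NOD and 0.61 and 0.31 in NOD.H2h4. After centring BB001228 was thus above B6 in the unmanipulated strains and below it in the congenic mice. Its means of 0.43 in NOD and 0.46 in NOD.H2h4 did not pass (limma adjusted p = 0.78 and 0.52). The medians subtracted from the NOD.H2h4 arrays, -0.86 and -0.74, were larger in size than its values there, so that sign rests on the centring. Fhl2 was at -0.28 and -0.86 in NOD and -0.18 and -0.18 in NOD.H2h4. Robo1 was at -0.20 and -0.55 in NOD, -4.52 (1 array) in NOD.H2h4 and -0.40 and -0.94 in NODtoB6, and its NOD.H2h4 value was close to its congenic kidney values. Zfp574 was at -1.81 and -1.88 in congenic T cells and -1.54 and -1.15 in congenic kidneys, and at 0.15 (1 array) in NOD and -0.34 and 0.02 in NODtoB6.

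Of the members from the chromatin list, Kat2a was at -0.15 and -0.33 in NOD, -0.36 and -0.56 in NOD.H2h4, -0.87 and -1.81 in NODtoB6 and -0.39 and -0.60 in B6toNOD. It was below B6 on all 8 arrays and passed in NODtoB6 (-1.34 ± 0.23, adjusted p = 0.0067, 0.058 without NODtoB6 replicate 2). Smarce1 was at -0.04 and 0.06 in NOD, -0.44 and -0.86 in NOD.H2h4, -0.12 and 0.22 in NODtoB6 and 0.48 and 0.38 in B6toNOD. It passed as lower in NOD.H2h4 (-0.65 ± 0.15, adjusted p = 0.011, 0.16 without NOD.H2h4 replicate 2). It passed as higher in B6toNOD (0.43 ± 0.15, 0.045), which was lost without B6toNOD replicate 1 or 2 (0.21 or 0.12), either congenic T cell array (0.060) or either NOD array (0.067), and on the values as deposited the B6toNOD mean was -0.34. Bnip3l, from the apoptosis list, was at 0.56 and 0.50 in NOD, -0.49 and -0.50 in NOD.H2h4, 2.85 and 0.32 in NODtoB6 and -0.45 and -0.63 in B6toNOD. Its first NODtoB6 array averages a probe at 0.39 with one at 5.30, and the second holds the first probe alone, at 0.32, so on the probe they share the replicates lay close together. The Bnip3l mean passed as higher in NODtoB6 (1.58 ± 0.47, adjusted p = 0.044), rests on that one high probe value and was 0.32 without NODtoB6 replicate 1 (0.073). Leaving out any 1 array of the other 5 groups gave an adjusted p of 0.051 to 0.072. Of the genes just inside the threshold, Baiap2l1 was at -0.03 and 0.17 in NOD, -0.36 and -0.78 in NOD.H2h4, -0.18 and -0.42 in NODtoB6 and -2.37 and -1.58 in B6toNOD. Spock1 was at -0.53 and -0.41 in NOD, -1.16 and -0.84 in NOD.H2h4, -0.50 (1 array) in NODtoB6 and -2.90 and -0.82 in B6toNOD. Baiap2l1 passed as lower in B6toNOD (-1.97 ± 0.19, adjusted p = 0.00012) and in NOD.H2h4 (-0.57 ± 0.19, 0.047). Its NOD.H2h4 adjusted p was 0.082 or 0.39 without NOD.H2h4 replicate 1 or 2, and 0.059 to 0.070 without any 1 array of the congenic mice, NOD or NODtoB6. Spock1 was below B6 on each array that measured it and passed in B6toNOD (-1.86 ± 0.46, 0.015, 0.084 without B6toNOD replicate 1).

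Between the strains, 5 of 52 members tested differed in NOD.H2h4 minus NOD (18.2% of features did), 2 higher and 3 lower (12% and 6.22% of features). The number was 1 or 2 without NOD replicate 1 or 2, 3 or 2 without NOD.H2h4 replicate 1 or 2 and 8 without either B6toNOD array. Between the marrow recipients 18 of 44 differed in B6toNOD minus NODtoB6 (36% of features), 11 higher and 7 lower (22.2% and 13.8% of features). Igf2r was the most different of these, by 3.38 (adjusted p = 0.00012). Map3k14 and Nav2 were the members that passed as lower in 3 groups, NOD.H2h4, NODtoB6 and B6toNOD. Map3k14 was at -0.03 and 0.04 in NOD, -0.67 and -0.55 in NOD.H2h4, -0.79 and -1.14 in NODtoB6 and -0.91 and -0.71 in B6toNOD. Its values outside NOD were between -1.14 and -0.55, smaller than in the congenic T cells. The NODtoB6 mean of Nav2 was -2.06 and its B6toNOD mean -0.95. Of 36 lower members tested in all 4 groups, 19 (52.8%) passed only as lower, 6 (16.7%) only as higher, 4 (11.1%) in both directions and 7 (19.4%) in none. Over the 13403 features tested in all 4 groups these shares were 25.9%, 30.4%, 16% and 27.6%. The directions in these counts also rest on the assumed direction of the marrow transfer arrays. Of 4 higher members tested in all 4 groups, 3 passed in none. Genes whose 8 other values were all measured and under 1 in absolute size were Chmp4b, Huwe1, Mettl16, Smarce1, Ube3b, Xrcc6, Ylpm1 and Zfp207 among the lower and Mfsd12, Trim12c and Zfp950 among the higher. Trim12c did not exceed 0.26 on any of the 8. A small value is not the same as no difference, since Huwe1, at -0.80 and -0.43 in NODtoB6, passed as lower, with a mean of -0.62 (adjusted p = 0.022), which was lost without NODtoB6 replicate 1 (0.19) and was -0.19 with the running median (0.38).

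Because the kidney comparison has its own B6 control, the same rule was applied to the kidney arrays beside each T cell group. With an absolute value of 1 or more on both arrays of a group, the kidney list held 358 genes (4.48% of those measured), of which 295 were lower (3.69%). It shared 53 lower genes with the congenic T cells, which is 17.4% of the 305 lower there (557 listed, 7.38%, and lower 4.04%) and 18% of the kidney's. It shared 49 with NODtoB6, 41 with NOD.H2h4, 31 with B6toNOD and 12 with NOD. Those are 15.6% of 315 genes lower in NODtoB6, 8.58% of 478 in NOD.H2h4, 7.14% of 434 in B6toNOD and 19% of 63 in NOD. Of the kidney's 295, the shared genes are 17% for NODtoB6, 13.9% for NOD.H2h4, 10.5% for B6toNOD and 4.07% for NOD. In the assumed direction, both NODtoB6 shares were thus close to the 17.4% and 18% of the congenic T cells. The lower lists were 4.04% of the genes measured in NODtoB6, 5.92% in NOD.H2h4, 5.94% in B6toNOD and 0.775% in NOD. The numbers for the marrow recipients rest on the assumed direction of their arrays, and with those arrays turned they would be 4 for NODtoB6 and 9 for B6toNOD. On this measure 1 of 57 members tested in NOD was past 1 on both arrays in the same direction. The counts were 7 of 54 in NOD.H2h4, 11 of 49 in NODtoB6 and 8 of 49 in B6toNOD. In the opposite direction there were 0, 2, 0 and 4 cases. Most members were lower, and the lower lists were 0.775%, 5.92%, 4.04% and 5.94% of genes measured in these groups. In either direction 1.28%, 8.17%, 6.3% and 12.7% were listed. With the marrow transfer arrays turned, same and opposite would trade places there.

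**Figure D4:**
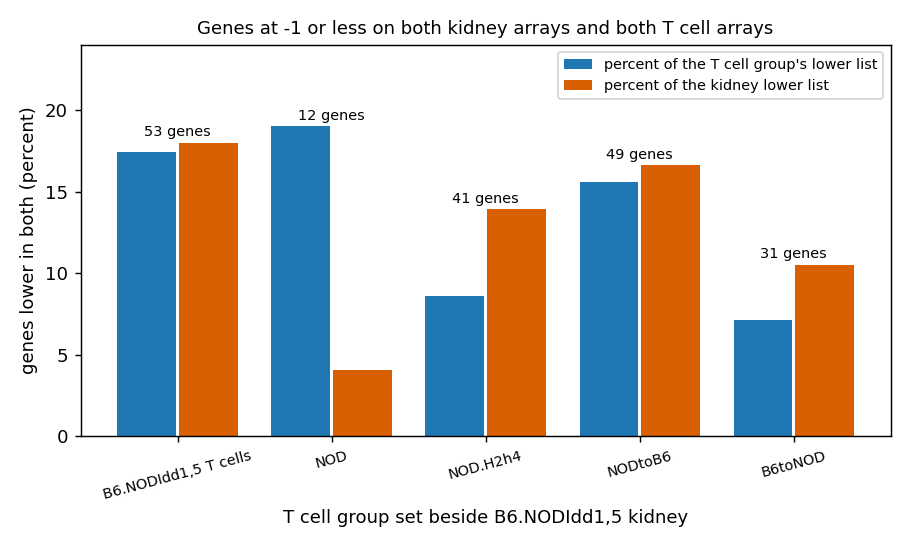
Genes at a centred log2 ratio of -1 or less on both congenic kidney arrays and on both arrays of a T cell group, as a percentage of that group's lower list (blue) and of the kidney's (orange), with the number of genes above the bars. The congenic T cells shared 53 of the kidney's 295 lower genes, and NODtoB6 shared 49, or 4 if the marrow transfer arrays are turned.

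The members' values rest mostly on single probes, with all 7 higher genes and 40 of the 53 lower genes on 1 probe and 13 lower genes on 2. For those 13 every one of 99 probe values on the 4 congenic arrays had the sign of the gene. Those arrays chose the genes, so this is a description only. Some of these values were small, such as -0.05 and -0.13 for 1 probe of Bnip3l in congenic kidneys. Both probes were past 1 on all 4 arrays for Pld1 and Ppp3cb, 1 probe was for 9 genes, and neither was for Mettl16 and Pidd1. The largest gap between 2 probes of a gene was 6.42 for Arhgap39, 6.33 for Zfp207 and 6.18 for Bcat1, against 0.50 for Mettl16. For 6 genes (Arhgap39, Bnip3l, Fhl2, Mettl16, Pidd1 and Pld1) the 2 arrays of at least 1 group hold different probes, so a gap between those arrays is also a gap between probes. The T cell values of Arhgap39 rest on 1 probe, which read -4.91 and -6.65 in congenic kidneys, and its kidney values average that probe with another at -0.10 and -0.23. Missing values were also more frequent, with 8.12% of the members' values on the 8 other arrays missing against 2.27% of those of named genes measured on the same 4 arrays. Spryd4 lacked a value on 5 of the 8.

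Probes lower by 1 or more on all 4 congenic arrays were spread unevenly along the order of the probes in the table. There were 166 of them, and of the probes with a value on all 4 they made up 2.33% in the 5th sixteenth of that order and 2.11% in the 14th, against 0.325% to 1.43% in the other 14. Of the 73 member probes, 19, of 19 members, lay there, and 41 members had none there. With the probes of those 2 sixteenths left out, 45 genes met the rule, of which 42 were members. Of the 166 probes, 22 (13.3%) stood next to another, against 2 of 56 (3.6%) lower on the NOD and NOD.H2h4 arrays, 6 of 133 (4.5%) lower on the marrow transfer arrays and 4 of 110 (3.6%) lower on the kidney and NOD.H2h4 arrays. Within 25 places of another lay 54.8% of the 166, against 28.6% for the NOD and NOD.H2h4 arrays, 45.1% for the marrow transfer arrays and 44.5% for the kidney and NOD.H2h4 arrays. The marrow transfer arrays were uneven too, with 22, 25 and 23 of their 133 probes in the 11th, 12th and 14th sixteenths. Adjacent members were Ubr7 and Lrsam1, Bnip3l and Esam, and Spryd4 and Arhgap39. The 140 neighbouring probes had medians of -0.29 and -0.14 in congenic T cells and -0.15 and -0.11 in congenic kidneys. The sources used here do not say how this order maps to the slide, and its part in the result was not tested.

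**Figure D5:**
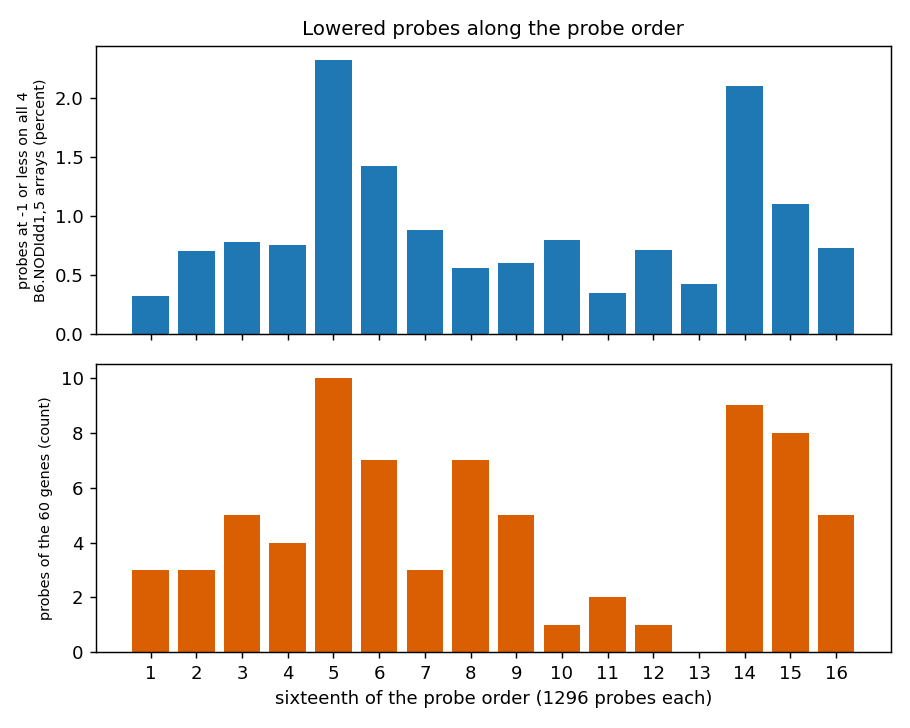
For each sixteenth of the probe order (1296 probes each), the upper bars give the percentage of probes at -1 or less on all 4 congenic arrays among those with a value on all 4 and the lower bars the number of probes of the 60 genes. In the upper panel the 5th and 14th sixteenths stand at 2.33% and 2.11%, above the other 14.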

How the data were processed

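RNA of each sample was hybridised with B6 RNA on cDNA arrays. On the 8 arrays of strains the experimental RNA was in Cy5 and B6 in Cy3, per the labels. The dyes were not exchanged on any of them, so strain and dye are confounded there. For the 4 arrays of marrow recipients no dye is stated, so their direction is an assumption. The deposited values are log2 ratios of experimental to B6 signal, with the scanning and normalising tools not stated in the sources used here. A ratio of 100000 stands in 146 cells, which were treated as missing. Of 20736 probes, 13033 carry 1 gene symbol, 312 several and 7391 none, and 12850 symbols were matched by gene identifier to RefSeq (GRCm38.p6), which gave 8708 named genes among 16411 features after averaging the probes of a gene. The median over features was subtracted from every array.

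Genes were dropped by name where the rule says so (Cd28, Fyn, Tuba4a and symbols starting H2-, Rpl, Rps, Nduf, Slc, Psm, Mrp, Eif, Dnaj, Hsp or Col). The genes and gene lists were chosen with earlier results of these data known. Group means and their differences were fitted over all 12 arrays with limma 3.58.1 (lmFit and eBayes, 6 residual and 1.36 prior degrees of freedom) in R 4.3.3, two-sided, with Benjamini-Hochberg adjustment over all features tested and a threshold of 0.05, and the fit was tested on simulated data. Other steps used Python 3.11.15, numpy 2.4.6 and pandas 2.3.3. All 60 genes are named. Per-array values are given for up to 12 genes of each direction with the largest smallest absolute value, up to 5 with the largest mean among those past the threshold in each other group, members of the gene lists and the 3 genes on each side of the rule's threshold. Roles were assigned by hand after the genes were known. Promoters were searched for 11 motifs on both strands. The number of arrays limits precision. Same-numbered arrays were checked for pairing: their deviations from the group means correlated between -0.036 and 0.022 over 15 pairings of groups, so the numbers were not taken to pair samples. Alternatives were the centring, scaling, a running median over 501 probes, the thresholds, the probe average, the filter on missing values, the arrays fitted, a replicate block and leaving out each array.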

Additional observations from a re-analysis of the deposited data

Results flagged for a closer look

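Among members tested between NOD.H2h4 and NOD, 5 of 52 differed by limma at an adjusted p of 0.05, with 18.2% of all features doing so. NOD.H2h4 minus NOD was -2.09 for Lrrc40, -1.50 for Nav2 and -0.61 for Map3k14, and 0.94 for Zfp932 and 0.75 for Ngb, a neuronal globin. The number was 1 or 2 without NOD replicate 1 or 2, and 3 or 2 without NOD.H2h4 replicate 1 or 2, and 8 without either B6toNOD array.

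Between the marrow recipients, 18 of 44 members differed, with 36% of all features doing so. B6toNOD minus NODtoB6 was above 0 for Igf2r (3.38), Smpd2 (2.19), Ppan (1.97), Baz2a (1.95), Pidd1 (1.53), Zfp574 (1.45), Chmp4b (1.43), Nav2 (1.10), Ylpm1 (0.69), Zfp950 (0.65) and Tipin (0.52). It was below 0 for Bnip3l (-2.13), Robo1 (-2.06), Mixl1 (-2.05), Ngb (-1.70), Baiap2l1 (-1.68), Dsn1 (-0.95) and Mettl16 (-0.50). On the values as deposited, 5 members were higher and 11 lower in this difference, against 11 and 7 after centring, and 11 and 2 with arrays scaled. The direction of these arrays is an assumption, and turning both groups turns every sign.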

How the results depend on the processing

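The rule gave 60 genes (7 higher, 53 lower). It gave 206 (2 and 204) on the values as deposited, 137 (20 and 117) at an absolute value of 0.8 and 16 (1 and 15) at 1.5, where the threshold itself sets the number. Leaving out 1 congenic array gave 82 to 123 genes, 14 to 21 higher and 63 to 106 lower. Scaling, a running median, the median of probes, the ratio of 100000 kept, the platform's symbols and centring over probes gave 56 to 63, and scaling kept 56 and the running median 48 of the 60. Alternatives chosen after seeing the data gave 45 (the 2 dense sixteenths left out) and 54 (every probe past 1).

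In NOD, 3 members passed. The number was 1 as deposited, with values required on all 12 arrays, with the 8 arrays outside the rule fitted alone or with the replicate block, and 9 with scaling. Leaving out 1 array gave 0 to 5. All features numbered 1951, against 191 as deposited, 4951 with scaling and 661 in the fit of 8 arrays, and 189 to 2459 with 1 array left out. In NOD.H2h4, 14 members passed, 36 as deposited and 10 to 18 with 1 array left out; features numbered 6252, 10076 and 3828 to 7512. In NODtoB6, members numbered 16 (13 to 18 with 1 array left out) and features 4103 (2314 to 5451). In B6toNOD, members numbered 27 (19 to 29), 16 with scaling, and features 7342 (6801 to 7645), 4512 with scaling. With the marrow transfer arrays turned, 14 rather than 2 members were higher in NODtoB6 and 17 rather than 10 in B6toNOD. NOD.H2h4 minus NOD gave 5 members (1 to 8), 15 as deposited, 1 with scaling and 3 in the fit of 8 arrays, and 2835 features (993 to 3829), 4293 as deposited and 1726 in the fit of 8 arrays. B6toNOD minus NODtoB6 gave 18 members (13 to 20) and 4918 features (3919 to 5748), 3127 with scaling. The cause of these changes was not tested.

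Replicate numbers were not taken to pair the samples, and the labels do not say whether they do. With them as a block, 1, 13, 14 and 25 members passed in NOD, NOD.H2h4, NODtoB6 and B6toNOD, and 4 and 17 in the 2 differences. The features that passed numbered 1670, 6064, 3864, 7218, 2545 and 4740. For the 60 calls of members against B6, 1021 of the repeats kept the call, 161 lost it and 6 turned the sign. All 6 were on the values as deposited, where the means were -0.22 for Ylpm1 and -0.015 for Pidd1 in NOD.H2h4, and -0.40 for Ylpm1, -0.34 for Smarce1, -0.11 for Chmp4b and -0.0085 for Zfp950 in B6toNOD, each above 0 after centring; these values keep each array's median offset. Signal over background is unknown here.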
